A study of Mus musculus with 2 samples.

Results

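The elastic fiber and microfibril genes were a list of 10 genes, Fbn1, Fbn2, Eln, Mfap2, Mfap4, Mfap5, Fbln1, Fbln2, Fbln5 and Lox, measured in mouse embryo fibroblasts (MEFs). They were chosen by name, with earlier results of these data known. Every probe set whose annotation gave exactly 1 gene symbol, and that symbol 1 of the 10, was taken. This gave 19 of 45037 probe sets and 9 of the 10 genes, among 18193 gene symbols in all. No probe set was assigned to Fbn1 in this way, and Fbn1 is not analysed here. The samples were MEFs of day 12.5 wild type embryos and of day 12.5 Ebp1 knock out embryos, both at passage 2 in medium with fetal bovine serum, with 1 array per genotype. The knock out mice carry a retroviral gene trap in intron 2 of Pa2g4, the gene that encodes Ebp1, and were kept on a mixed C57BL/6 and 129SvEvBrd background. The 5 probe sets of Pa2g4 had log2 ratios (knock out divided by wild type) from -0.90 to -0.33, and the brightest read 1835 on the wild type array and still 1178 on the array labelled knock out. The arrays alone thus do not show the loss of this transcript, the sources used here do not place the probe sets relative to the trap, and the genotypes are given as labelled. The sources used here do not say whether each culture came from a single embryo or from pooled embryos. With 1 array per genotype there is no replicate spread, so no error, test or p-value is given, and each ratio compares these arrays rather than the genotypes.

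Elastic fibers give skin, lung and large vessels their recoil. They form when tropoelastin, the product of Eln, is laid down on a scaffold of microfibrils built from fibrillins and small associated glycoproteins, and is then cross-linked by enzymes of the lysyl oxidase family. Fibulins bind tropoelastin or fibrillin and help to bring these parts together. Embryonic fibroblasts are among the cells that secrete these proteins.

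In Ebp1 knock out MEFs the signals of elastin and of part of the microfibril genes were lower. Those of the listed fibulins and of lysyl oxidase were close to wild type on their brightest probe sets. Mfap4 and Mfap2 were over 2-fold lower, at log2 ratios (knock out divided by wild type) of -1.53 and -1.15. Eln lay at the 2-fold line (-1.00), and Fbn2 was lower by less (-0.61). Mfap5 was 0.48 on this log2 scale, and Lox, Fbln2 and Fbln5 were between 0.12 and 0.25, of which the last 3 turned below 0 when the arrays were scaled to the hybridization spike-ins. Fbln1 did not reach a signal of 500, and its probe sets ranged from -0.54 to 0.02. Efemp1, the fibulin-3 gene and not on the list, was 1.01 as deposited and 0.62 after spike-in scaling.

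Signals are in the intensity units of the deposited table. A signal under 100 was taken as low, and a gene is described by its brightest probe set, the one with the highest mean log2 signal over both arrays. The count of genes that stood apart took those with 500 or more on either array and more than 2-fold between the arrays. The minimum and the fold are those of the study's methods, which also required a p-value that the values used here do not hold. Applying the minimum to either array was a choice made here. Of the 9 measured genes 8 reached 500. Of these 8, 2 were over 2-fold lower, against 1.06% of 5014 genes over the whole table, and 0 were over 2-fold higher, against 0.758%. The list was chosen with earlier results of these data known, so these shares describe it and do not test it. Counted as probe sets, 11 of the 19 reached 500, of which 3 were over 2-fold lower and 0 higher, while the shares over all 7857 such probe sets were 0.942% and 1.64%. The median log2 ratio of the 8 genes was -0.25, and that of the 5014 genes was -0.05. The median hides a division of the list, since 4 of the 8 were below 0 and 4 above. Among all genes 57.8% were below 0.

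**Figure D1:**
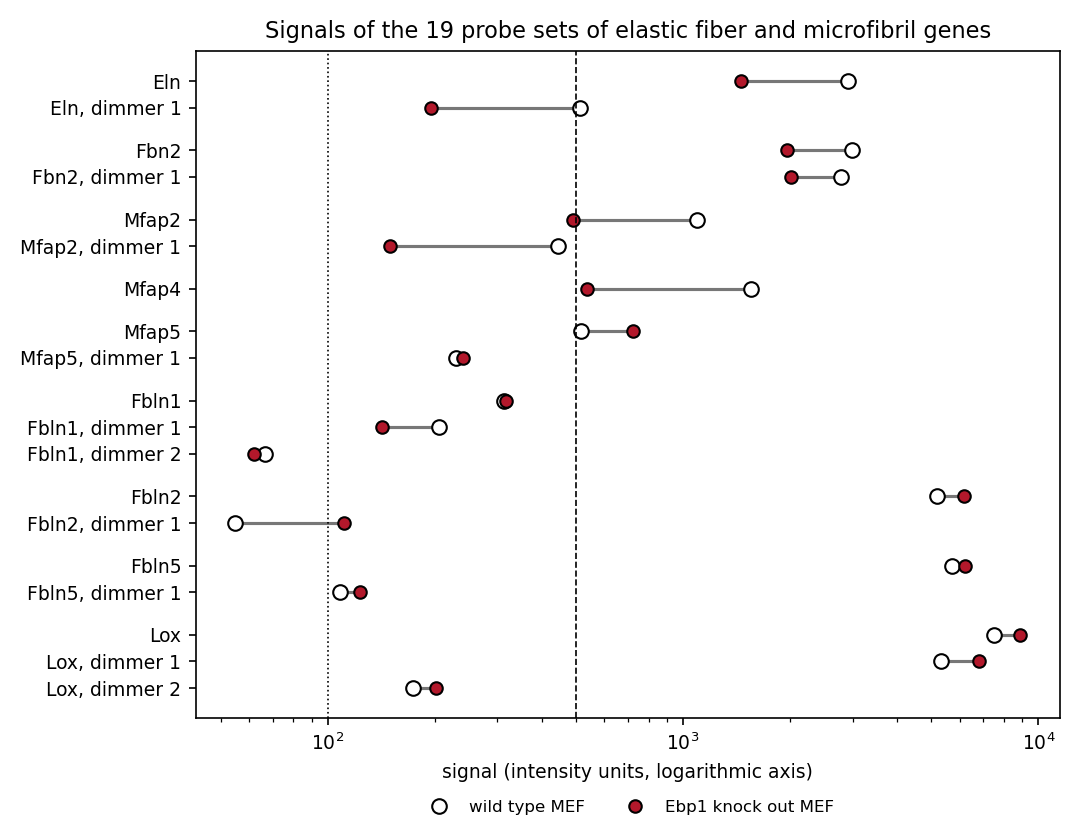
Signals of the 19 probe sets on the wild type (open) and knock out (red) array, in intensity units on a logarithmic axis. The dotted line marks 100 and the dashed line 500. For each gene the brightest probe set comes first. Both probe sets of Eln, Fbn2 and Mfap2 and the probe set of Mfap4 lie to the left in knock out MEFs, and those of Lox, Fbln2, Fbln5 and Mfap5 lie to the right under the deposited scaling.

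Eln encodes tropoelastin, the soluble precursor of the elastic core. Its brightest probe set (1420855_at) gave 2911 on the wild type array against 1459.7 on the knock out array. The log2 ratio was -1.00, or 1.99-fold, which is just short of the 2-fold threshold. The other probe set of Eln was dimmer, with 512 against 195, and was 2.62-fold lower (log2 ratio -1.39). Both were lower, and Eln came over 2-fold on its brightest probe set after median centring (-1.10), loess (-1.00, at slightly over 2-fold) and spike-in scaling (-1.39). Of the 1440 probe sets whose mean log2 signal was within 0.5 of that of the brightest Eln probe set, 0.139% had a lower ratio.

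Fbn2 encodes fibrillin-2, the microfibril subunit that is prominent in embryonic tissue. Its brightest probe set gave 2990.1 in wild type cells against 1962 (knock out; log2 ratio -0.61, 1.52-fold lower). Its other probe set gave 2789 against 2016 (-0.47). The signals of the 2 probe sets were thus lower by similar amounts, and neither was over 2-fold lower under the deposited scaling, median centring, quantile normalization, loess or spike-in scaling, the last of which brought the brightest to -1.00, just inside 2-fold. Of all 5014 genes 4.55% had a lower ratio than Fbn2, and on the upward side 4.37% had a higher ratio than Mfap5.

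Mfap2 and Mfap5 encode MAGP-1 and MAGP-2, a pair of small related glycoproteins that bind fibrillin. Mfap2 (1417359_at) was 1091 in wild type cells and 491 in the knock out cells, a log2 ratio of -1.15 or 2.22-fold lower. Its other probe set was at 444 and 149.6 (-1.57), lower by more but under 500 on both arrays. Mfap5 was higher in knock out MEFs instead, at 517 against a higher 724 (0.48). Its dimmer probe set was nearly level, at 229.6 and 239.7 (0.06, but -0.04 once median-centred and -0.33 when scaled to the spike-ins). The brightest probe sets of this pair differed by 1.64 in log2 ratio, a difference that a constant scaling of either array leaves as it is.

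Mfap4 encodes a microfibril-associated protein with a fibrinogen-related domain that binds elastin and fibrillin. It was measured by a single probe set (1424010_at), which read 1554 on the wild type array and 538 on the other. This was 2.89-fold lower (log2 ratio -1.53), the lowest ratio among the 9 genes. Of all 5014 genes 0.299% had a lower ratio than Mfap4 and 0.718% a lower one than Mfap2. No other probe set of Mfap4 was there to compare it with.

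The fibulins are secreted glycoproteins with calcium-binding EGF-like domains. Fbln5, whose product binds tropoelastin and guides it onto microfibrils, had 5714 (wild type) and 6198 (knock out) on its brightest probe set (log2 ratio 0.12, -0.27 after spike-in scaling) and 108 and 123 on its other one (0.18, also below 0 after spike-in scaling). Fbln2, which lies at the border of elastic fibers and in basement membranes, had 5178 and 6157 (0.25, -0.14 after spike-in scaling). The other probe set of Fbln2 was 54.9 and 111, where the low wild type signal leaves only a bound of at least 1.11-fold higher when it is set to 100. Fbln1, a fibulin of the elastic core and of blood, did not reach 500. Its probe sets gave 314 and 317 (0.02), 206 and 142 (-0.54) and 66.4 and 61.8, the last under 100 on both arrays, so its direction differed between probe sets and the brightest turned below 0 when median-centred (-0.09) or scaled to the spike-ins (-0.38). No fibulin of the list was over 2-fold apart on a probe set that reached 500.

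The promoters were searched in the 250 bases before each start that the promoter table, taken from RefSeq, lists for a gene in GRCm38.p6. It held 5 of the 10 genes (Fbn1, Mfap2, Fbln1, Fbln2 and Fbln5) with 8 starts. Of the 4 lower genes only Mfap2 was among them, and its outermost start is shown beside that of Fbln5, which differed little between the arrays. Capitals mark each match to GGGCGG (the GC box), TGANTCA (the AP-1 site), GGAATG (the TEAD site) or CAGACA (the SMAD element), on either strand, and no matches overlap. Both stretches are given 5′ to 3′ on the strand of the gene, Mfap2 at chr4:141010174-141010423 on the plus strand and Fbln5 at chr12:101819120-101819369 on the minus strand.
Mfap2: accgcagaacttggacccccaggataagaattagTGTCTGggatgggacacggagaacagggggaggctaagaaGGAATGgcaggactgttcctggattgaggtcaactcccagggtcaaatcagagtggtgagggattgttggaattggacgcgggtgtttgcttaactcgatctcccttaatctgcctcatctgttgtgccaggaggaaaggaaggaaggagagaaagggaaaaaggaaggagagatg
Fbln5: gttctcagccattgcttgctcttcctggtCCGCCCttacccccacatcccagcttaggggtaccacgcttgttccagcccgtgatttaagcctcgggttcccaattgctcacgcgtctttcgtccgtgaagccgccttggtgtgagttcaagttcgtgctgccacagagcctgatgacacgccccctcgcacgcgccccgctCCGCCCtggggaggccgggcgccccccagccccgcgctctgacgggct
The Mfap2 stretch held 1 match to GGAATG, beginning at position -176 from the start, and 1 to CAGACA at -216. The Fbln5 stretch held 2 matches to GGGCGG, at -221 and -48. The other listed starts of both genes differed from these, with 2 matches to GGGCGG and none to the other 3 motifs for Mfap2, and 1 match to CAGACA and none to the other 3 for Fbln5. Over all 32851 listed starts, GGGCGG was in 32.7%, CAGACA in 17.1%, GGAATG in 12.6% and TGANTCA in 6.75%. Among the 8 starts of the genes described here, GGGCGG was in 5, CAGACA in 4, GGAATG in 1 and TGANTCA in 0. These matches are descriptions of the letters, and the arrays did not measure binding.

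Lox encodes lysyl oxidase, the copper-dependent enzyme that cross-links elastin and collagen through their lysines. Its 3 probe sets gave 7476 and 8901 (log2 ratio 0.25), 5318 and 6794 (0.35), and 174 and 202 (0.22), wild type first. All 3 were higher by at most 1.28-fold as deposited, and all 3 were below 0 after spike-in scaling, from -0.18 to -0.04.

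**Figure D2:**
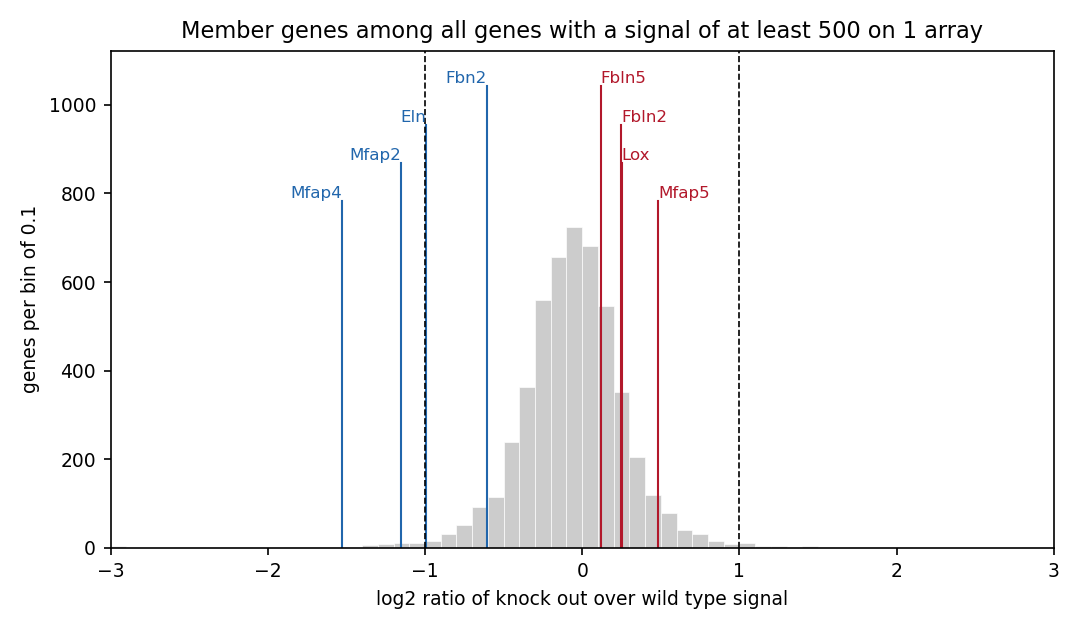
Log2 ratios (knock out divided by wild type) of the 5014 genes that reached 500 on at least 1 array (grey, in bins of 0.1, with ratios beyond 3 in the end bins) and for the 8 elastic fiber and microfibril genes among them (blue below 0, red above). Dashed lines mark 2-fold. Mfap4 and Mfap2 lie beyond the lower line and Eln at it, and the other 5 lie inside 2-fold.

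The scatter between probe sets of a gene showed how far their ratios differ within these arrays. Among 1487 genes with at least 2 probe sets that reached 500, the log2 ratios of the brightest pair differed by a median of 0.24, and the 95th percentile of this difference was 0.81. The members with such a pair were Eln (0.40), Fbn2 (0.14) and Lox (0.10), all within that range. Mfap2, Mfap4 and Mfap5 had no such pair. The ratios of Fbln5 and Eln lay 1.11 apart, but scatter within a gene is no reference for a distance between different genes. This scatter does not include differences between cultures, embryos or arrays.

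The 4 lower genes stayed below 0 under each scaling of the arrays. Eln, Fbn2, Mfap2 and Mfap4 were below 0 on the brightest probe set under the deposited scaling, median centring, quantile normalization, loess and spike-in scaling. Mfap4 ranged from -1.92 to -1.50 and Mfap2 from -1.54 to -1.12. Lox, Fbln2 and Fbln5 were above 0 under each of these apart from the spike-ins, and Mfap5 was above 0 under all 5 (0.09 to 0.52). Median centring shifted every log2 ratio by -0.11 and the spike-ins by -0.39. Both shifts run downward, so they could turn only genes above 0 and could not lift a lower gene. The lower and the higher genes are therefore not compared in stability.

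**Figure D3:**
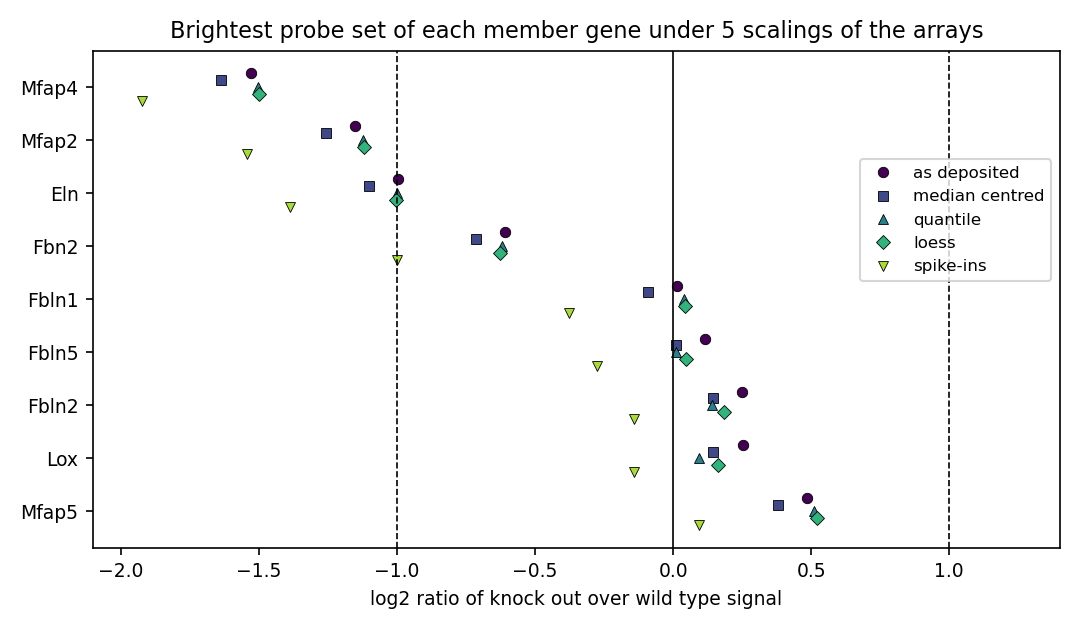
Log2 ratio of the brightest probe set of each of the 9 measured genes under the deposited scaling, median centring, quantile normalization, loess and spike-in scaling. Dashed lines mark 2-fold. Mfap4 and Mfap2 stay beyond 2-fold lower under all 5, Eln moves across the line, and Fbln5, Fbln2 and Lox cross 0 with spike-in scaling (Fbln1 also with median centring).

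The wider pathway was described with 5 further lists of 49 genes in all, of which 46 had a probe set and 24 reached 500. Of the 24, 1 was over 2-fold higher (0.758% of all 5014 genes) and 1 over 2-fold lower (1.06% of all). The median log2 ratio was -0.09, against -0.05 over all genes, and 15 of the 24 were below 0, near the 57.8% of all genes. Efemp2, Adamts17 and Loxl2 had no probe set assigned to them alone and are not analysed here.

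Of 6 microfibril and elastic fiber assembly genes that reached 500, 3 were above 0 and 3 below, with a median of 0.15 (-0.25 after spike-in scaling). Efemp1, which encodes fibulin-3, was 1904 (wild type) and 3832 (knock out), a log2 ratio of 1.01. This ratio fell inside 2-fold after median centring (0.90), quantile normalization (0.99), loess (0.99) and spike-in scaling (0.62). The latent TGF-beta binding proteins, relatives of the fibrillins, went both ways. Ltbp1 was 1042 and 1836 (0.82), Ltbp2 was 2537 and 3301 (0.38, -0.01 after spike-in scaling) and Ltbp3 was 2632 and 2012 (-0.39). Emilin1, named after its values were seen, encodes a glycoprotein at the interface of elastin and microfibrils and was 1044 and 570.4 (-0.87). A dimmer Emilin1 probe set differed far less, with 407 (wild type) against 364 (knock out), a log2 ratio of -0.16. The size of the Emilin1 difference thus depended on the probe set.

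Of 5 cross-linking genes that reached 500, none was over 2-fold apart, and 4 were below 0 with a median of -0.23. Loxl1, the lysyl oxidase relative needed for elastic fiber upkeep, was 5047 and 4317 (-0.23), Loxl3 was 843 and 749 (-0.17), and Bmp1, the protease that activates pro-lysyl oxidase, was 1137 and 839 (-0.44). Loxl4, named after its values were seen, stayed under 500 and was 141 and 353 (1.32), with a like ratio on its other probe set (1.31).

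Of 10 genes of fibrillin processing, scaffold and receptors that reached 500, 1 was over 2-fold lower. This was Dcn, the gene of the collagen-binding proteoglycan decorin, at 1275 and 419 (-1.61). The related proteoglycan gene Bgn was 7967 and 8767 (0.14, below 0 after quantile normalization and spike-in scaling). Fn1, whose product fibronectin is needed for fibrillin assembly, was 7273 and 8320 (0.19, -0.20 after spike-in scaling), and Itgav, the gene of an integrin chain that binds fibrillin, was 5614 and 5543 (-0.02). Of the elastin-degrading enzymes 2 of 8 reached 500, Ctsl at 4367 and 5413 (0.31, -0.08 after spike-in scaling) and Mmp2 at 2748 and 1830 (-0.59). The remaining Ctsl probe set was low in both cultures (2.62 and 44.2), so its ratio is not read. Ctsk was 355 and 439 (0.31, -0.09 after spike-in scaling). The other 5 enzymes were under 100 on both arrays on their brightest probe sets. Of the elastin receptor complex, Ctsa was 1782 and 1663 (-0.10), Glb1 484 and 414 (-0.22) and Neu1 238 and 185 (-0.36). Of the pathway genes named here, Ltbp3, Bmp1, Itgav, Neu1 and Ctsa had probe sets that under the deposited scaling did not all lie on the same side of 0.

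**Figure D4:**
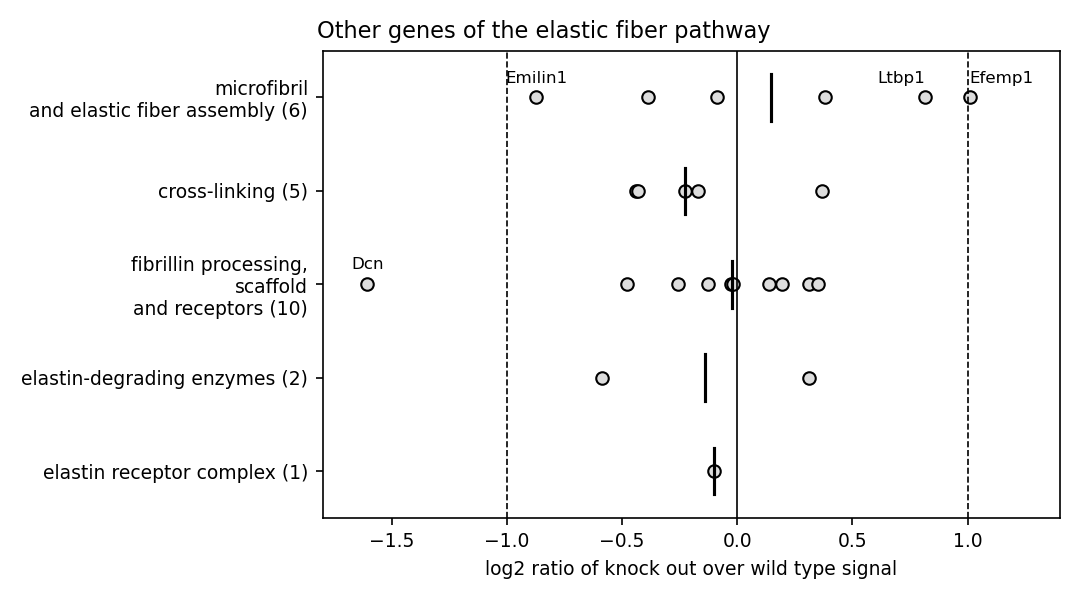
Log2 ratios of the 24 other pathway genes that reached 500, by list, with the number of genes in parentheses and the median as a vertical bar. Dashed lines mark 2-fold. Dcn lies beyond the lower line and Efemp1 just beyond the upper line under the deposited scaling only, inside it after median centring, quantile normalization, loess and spike-in scaling. Genes beyond 0.8 in either direction are named.

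The arrays and cells were checked as follows. Of 11 fibroblast markers 10 reached 500, with summed signals of 51000.2 (wild type) and 52807 (knock out). These sums are carried by a few very bright genes such as Vim, Col1a1 and Col1a2, and 7 of the 11 markers were below 0 in log2 ratio as deposited. Pdgfra, a receptor of mesenchymal cells, was over 2-fold lower on its brightest probe set (506 and 201, -1.33), as was Fap, which stayed under 500 (409 and 155, -1.40). The other Pdgfra probe sets were under 100 on both arrays and went both ways (-0.19 and 0.20). Pdgfrb was -0.67 and Thy1 -0.58, while Col1a1 was 0.10 (below 0 when quantile-normalized, median-centred or scaled to the spike-ins), Col1a2 0.26 and Vim 0.25 (both below 0 with the spike-ins). The collagens differed by probe set. A dimmer Col1a1 probe set was 3477 and 2554 (-0.45), and the dimmer ones of Col1a2 were 0.09 and -0.33. Col3a1 was -0.11, and -0.44 on its dimmer probe set. The smooth muscle list, of cells that also make elastin, had 3 of 6 genes at 500 or more (Acta2, Tagln and Cnn1), with 16503 and 19761 summed. Acta2 and Tagln carry most of these sums, and Cnn1 was 1092 and 1977 (0.86). On the brightest probe sets 0 of the 6 markers were below 0 as deposited, but Acta2 (-0.13) and Tagln (-0.25) were after spike-in scaling. Myocd, the defining cofactor, was under 100 on both arrays, and Myh11 was 119 and 166. None of 6 endothelial and none of 6 macrophage markers reached 500, with 243 and 281 and with 696 and 708 summed. The epithelial, cartilage and neural lists had 1 gene each at 500 or more (Epcam, Col2a1 and Map2), and their sums were 521 and 1714, 1056 and 1394, and 1444 and 1732. Most of the first difference was Epcam, an adhesion molecule of epithelia, at 174 and 1350.5 (2.96) on its brightest probe set. The remaining Epcam probe set was low in both cultures (5.81 and 4.07), so the Epcam difference rests on the brightest probe set alone. The part of these values in the lower Eln, Mfap2 and Mfap4 signals was not tested. In such bulk RNA, fewer cells of a type and less RNA per cell cannot be told apart.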

How the data were processed

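RNA of wild type and Ebp1 knock out MEFs was hybridized to 1 oligonucleotide array per genotype. The deposited values are linear signal intensities per probe set, which the authors computed with MAS5 from perfect-match and mismatch probes and scaled to a constant target intensity on each array. Without 64 control probe sets, 45037 remained, of which 34945 were assigned to 1 gene symbol by GEO's platform annotation, 932 to several and 9160 were unnamed here. The log2 of the knock out signal divided by the wild type signal was taken, with a minimum of 500 and a threshold of 2-fold. The genes described were every member with each probe set, and of each pathway list those over 2-fold apart and up to 3 others with the highest mean log2 signal. Members and lists were chosen with earlier results of these data known. Alternatives were other scalings (9 spike-in probe sets, loess fraction 0.3), low-signal treatments, probe set choices, minimums and folds. The counting steps were run on simulated signals with little added scatter and with known ratios put into bright genes only. This checks the arithmetic and not the precision of these data. Precision is limited by the number of arrays. Calculations used pandas 2.3.3, numpy 2.4.6 and statsmodels 0.14.6 under Python 3.11.15, and plots matplotlib 3.10.9.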

Additional observations from a re-analysis of the deposited data

How the results depend on the processing

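The count of 2 elastic fiber and microfibril genes over 2-fold lower was 3, with Eln added, after median centring, loess and spike-in scaling and when the probe sets of a gene were averaged. It was 1 with at least 500 on both arrays, where Mfap2 was left out, 4 at a threshold of 1.5-fold and 0 at 3-fold. No alternative run gave a member over 2-fold higher. Their median log2 ratio of -0.25 was -0.64 with spike-ins and -0.61 with a minimum of 1000, and it was above 0 with a minimum of 100 or none (0.02) and with at least 500 on both arrays (0.12), since these change which genes enter. Of the other pathway genes, the 1 over 2-fold higher became 0 after median centring, quantile normalization, loess and spike-in scaling, with 50 added to each signal and at 3-fold, 2 with a minimum of 100 and at 1.5-fold, and 3 with no minimum and with averaged probe sets. The 1 over 2-fold lower became 2 with spike-ins, 0 with at least 500 on both arrays, and 3 with no minimum and at 1.5-fold. Of 90 values of single members under the alternatives none moved by over 1.5-fold, and 6 changed sign, all of Fbln1, Fbln2, Fbln5 and Lox. Raising signals to 100, leaving out probe sets with the suffixes _x_at and _s_at, and choosing by wild type signal changed no member's value. Median centring (-0.11) and the spike-ins (-0.39) shift every ratio by a constant smaller than 1.5-fold, so these runs could not move a value that far. No paired analysis was possible because there was 1 array per genotype. Ratios of dim probe sets are uncertain, and 57.9% (wild type) and 57.1% (knock out) of all probe sets were under 100.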
